A study of Rattus norvegicus with 6 samples.

Results

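The 2 arms of the rat miR-378a stem-loop, rno-miR-378a-3p and rno-miR-378a-5p (here miR-378a-3p and miR-378a-5p), were taken from the 763 mature miRNAs counted in plasma exosomes, and both were found. They were chosen by name, with earlier results of the same counts known, for their share of all counts and the ratio of the arms. These levels are therefore a description. Small RNA was sequenced from plasma exosomes of young adult male Sprague-Dawley rats. C-exo (3 libraries) came from control rats without remote ischemic pre-conditioning (RIPC), and R-exo (3 libraries) from rats in its late phase. RIPC was 4 cycles of 5 min ischemia and 5 min reperfusion of both hind limbs under anesthesia, and blood was drawn 48 h later in both groups. Neither group had a heart injury, a transgene or a drug other than the anesthetic. Nothing in the labels says whether each library came from 1 rat or from a pool, so the p-values below measure the spread between these libraries, which may be partly technical.

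A miRNA stem-loop is cut into a duplex whose 3p and 5p arms can each be loaded into an Argonaute protein and repress transcripts that pair with the seed. The miR-378a stem-loop sits in an intron of Ppargc1b, which encodes PGC-1β, a coactivator of mitochondrial biogenesis and fatty acid oxidation, and it is made together with that transcript in heart, skeletal muscle, brown fat and liver. miR-378a-3p is the main product and is known for repressing carnitine acetyltransferase, and miR-378a-5p is known for repressing the Mediator subunit MED13. In blood, the cell of origin of an exosomal miRNA cannot be read from its level, and fewer vesicles from a cell type cannot be told apart from less of the miRNA in each.

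The mature sequences are shown because each arm has its own seed and because the arms face an annotated miRNA on the opposite strand. They are RefSeq sequences of the assembly GRCr8, matched by name, as were 686 of the 763 counted miRNAs. Capitals mark the seed, bases 2 to 8 from the 5′ end.
miR-378a-3p: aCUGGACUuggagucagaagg
miR-378a-5p: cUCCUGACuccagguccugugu
miR-378a-3p has 21 bases, of which 11 are G or C, and lies at chr18:57128925-57128945 on the minus strand. miR-378a-5p has 22 bases, of which 13 are G or C, and lies at chr18:57128962-57128983 on the same strand. Between the arms lie 16 bases of loop, and the stem-loop is within the span of Ppargc1b, which is also on the minus strand. The longest stretch over which the arms pair perfectly is 9 bases, uggagucag at positions 9 to 17 of the 3p arm and cugacucca at positions 4 to 12 of the 5p arm. No other named mature rat miRNA in the RefSeq table had the seed of either arm, although miR-378b, which was counted, has no entry in that table.

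miR-378a-3p was one of the most abundant miRNAs in these exosomes. It held 9.98%, 10.8% and 2.26% of all miRNA counts in C-exo replicates 1, 2 and 3, and 6.44%, 2.43% and 2.98% in R-exo replicates 1, 2 and 3. C-exo replicates 1 and 2 and R-exo replicate 1 were high, and C-exo replicate 3 was lower than every R-exo library, so the groups overlapped. C-exo replicates 1 and 2 also stood apart in composition, with 68.3% and 66.0% of counts in their 10 most abundant miRNAs against 52.3% to 54.6% in the other 4 libraries, and with 471 and 494 miRNAs detected against 530 to 544. The part of this in the share of miR-378a-3p was not tested. The mean share was 7.69% ± 4.72 in C-exo and 3.95% ± 2.17 in R-exo (SD, n = 3 each), a difference of -3.74 percentage points (exact two-sided permutation p = 0.4, where 3 libraries against 3 allow no p below 0.1). That difference was -6.46 percentage points without C-exo replicate 3 and -2.17 without C-exo replicate 2. With the other miRNAs among the 10 most abundant taken out of the total it was -9.33 percentage points (exact two-sided permutation p = 0.4). The totals were between 5484209 and 7531737 counts per library, so counting error was small beside these differences, with a Wilson 95% interval of 2.25% to 2.27% for the lowest share. Intervals cover counting error only, since reads amplified without molecular identifiers are not independent molecules. Ranked within a library, miR-378a-3p came 2, 1 and 10 in C-exo and 3, 12 and 11 in R-exo.

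**Figure D1:**
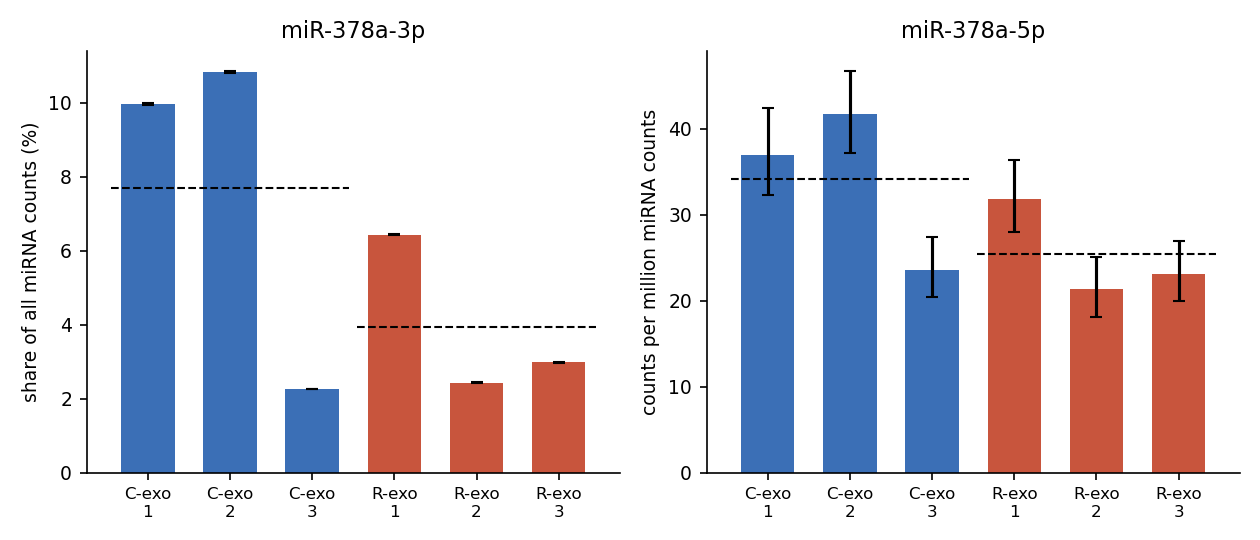
Bars give the share of all miRNA counts (%) for miR-378a-3p and the RPM for miR-378a-5p in each library, with Wilson 95% intervals, and dashed lines give group means. C-exo replicates 1 and 2 and R-exo replicate 1 are the highest for both arms, while the axes differ in unit.

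miR-378a-5p was rare in the same libraries. It had 203, 293 and 178 counts in C-exo replicates 1, 2 and 3, or 37.0, 41.7 and 23.6 RPM, which is counts scaled to the total count of the library, without further scaling. In R-exo replicates 1, 2 and 3 it had 224, 149 and 171 counts, or 31.9, 21.3 and 23.2 RPM. The same 3 libraries were the highest as for the 3p arm, but the steps between libraries were smaller. At these counts the Wilson 95% interval ran from 37.2 to 46.8 RPM in the highest library, C-exo replicate 2, and from 18.2 to 25.1 RPM in the lowest, R-exo replicate 2. The intervals of C-exo replicate 3, R-exo replicate 2 and R-exo replicate 3 overlapped, so their order could not be told at this depth. C-exo replicate 1, with an interval of 32.3 to 42.5 RPM, overlapped both C-exo replicate 2 and R-exo replicate 1 (28.0 to 36.3 RPM). Its place beside them could not be told either. The mean was 34.1 ± 9.38 RPM in C-exo and 25.5 ± 5.63 RPM in R-exo (SD, n = 3 each; exact two-sided permutation p = 0.2). Within a library miR-378a-5p ranked between 206 and 238.

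The ratio of the arms was extreme and was not constant. There were 2695, 2600 and 957 reads of the 3p arm per read of the 5p arm in C-exo replicates 1, 2 and 3, and 2020, 1139 and 1288 in R-exo replicates 1, 2 and 3. The 3p arm therefore made up between 99.90% and 99.96% of the reads of the pair. Exact 95% intervals of the ratio, set by the 5p counts, ran from 826 to 1115 in C-exo replicate 3 and from 2349 to 3108 in C-exo replicate 1. These libraries of the same group thus differed by more than counting error, if reads are taken as independent, which amplified reads are not. The libraries with the most miR-378a-3p had the highest ratio, and the ratio shares its numerator with that level. From the lowest to the highest library miR-378a-3p ranged 4.79-fold as a share of counts, miR-378a-5p 1.95-fold and their ratio 2.82-fold.

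Between the groups the arm ratio was not shown to differ. The mean ratio was 2084 ± 977 in C-exo and 1482 ± 472 in R-exo (SD, n = 3 each). On the log2 scale, with 0.5 added to each count, the difference of R-exo minus C-exo was -0.39 (standard error 0.57, 95% interval -1.73 to 0.94, adjusted p = 0.70 by limma over 110 arm pairs; exact two-sided permutation p = 0.6). By limma 0% of the 110 pairs passed an adjusted p of 0.05, and 7 had an unadjusted p under 0.05. Without C-exo replicate 3 the difference was -0.88 (standard error 0.42, adjusted p = 0.17 by limma), which did not pass either. It was -0.14 without C-exo replicate 1, -0.16 without C-exo replicate 2, -0.64 without R-exo replicate 1 and -0.23 without R-exo replicate 2, none of which passed.

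Among the 110 stem-loops with both arms tested, miR-378a had the second highest mean log2 ratio of 3p over 5p, 10.68. Only miR-25 was higher, at 11.44, with 5p counts between 19 and 51. Next below were miR-27b at 9.22 and miR-151 at 9.12. The SD of the log2 ratio over the 6 libraries was 0.64 for miR-378a and 0.88 for miR-25, so the order of miR-378a and miR-25 is within their spread. It was 1.86 for miR-27b and 0.54 for miR-151, and the median SD over all pairs was 0.82. miR-378a was thus a strongly one-armed pair whose ratio varied no more than that of most pairs, with an SD at the 29.1 percentile. The median pair had a log2 ratio of 0.67.

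**Figure D2:**
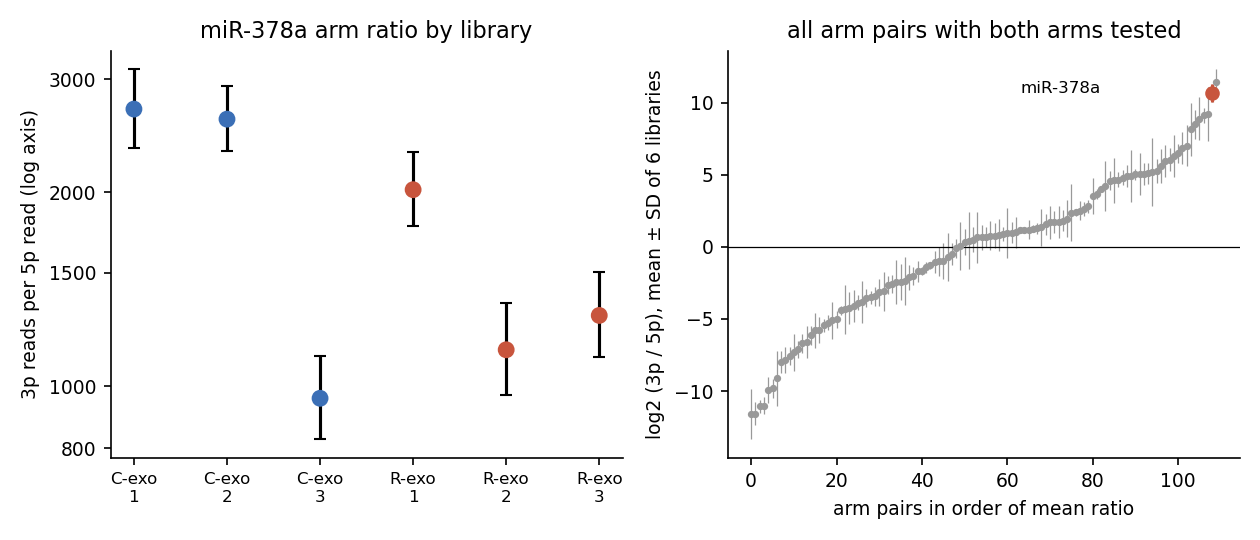
Left, 3p reads per 5p read of miR-378a in each library with exact 95% intervals (log axis). Right, mean log2 ratio of 3p over 5p with SD over the 6 libraries for 110 arm pairs in order, where miR-378a at 10.68 is second from the top.

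Few counts were listed for the miRNA annotated on the opposite strand of the locus. RefSeq annotates the stem-loop Mir3557 on the plus strand over the miR-378a locus, which was picked for this text after its counts were known, and its arms are shown because they are the reverse complements of the miR-378a arms.
miR-3557-5p: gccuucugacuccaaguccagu
miR-3557-3p: acacaggaccuggagucaggag
The reverse complement of miR-3557-5p (chr18:57128924-57128945, GRCr8) holds miR-378a-3p whole, and that of miR-3557-3p (chr18:57128962-57128983, GRCr8) holds miR-378a-5p whole. miR-3557-5p had 0 counts in every library, which allows up to 3 counts or between 0.398 and 0.547 RPM, against 2321742 counts of miR-378a-3p in all. miR-3557-3p had 5 counts in all, 1 in C-exo replicate 2 and 4 in R-exo replicate 1, against 1218 of miR-378a-5p. How the counting treated strand is not stated in the sources used here.

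The row miR-378b moved with miR-378a-3p. For 100 reads of miR-378a-3p there were 4.87, 6.11 and 6.08 reads of miR-378b in C-exo replicates 1, 2 and 3, and 6.66, 6.53 and 6.03 in R-exo replicates 1, 2 and 3. Its share of all counts was between 0.137% and 0.663%. The ratio of the rows ranged 1.37-fold, whereas each row by itself ranged more than 4-fold. RefSeq annotates Mir378b on chromosome 5 of GRCr8, away from Mir378 on chromosome 18, and how the counting assigned reads that match both rows is not stated in the sources used here, so the values of miR-378b and miR-378a-3p are uncertain to that extent. Adding the miR-378b counts to miR-378a-3p, an alternative chosen after the data were seen, changed the log2 fold change of the 3p arm from -1.16 to -1.15.

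**Figure D3:**
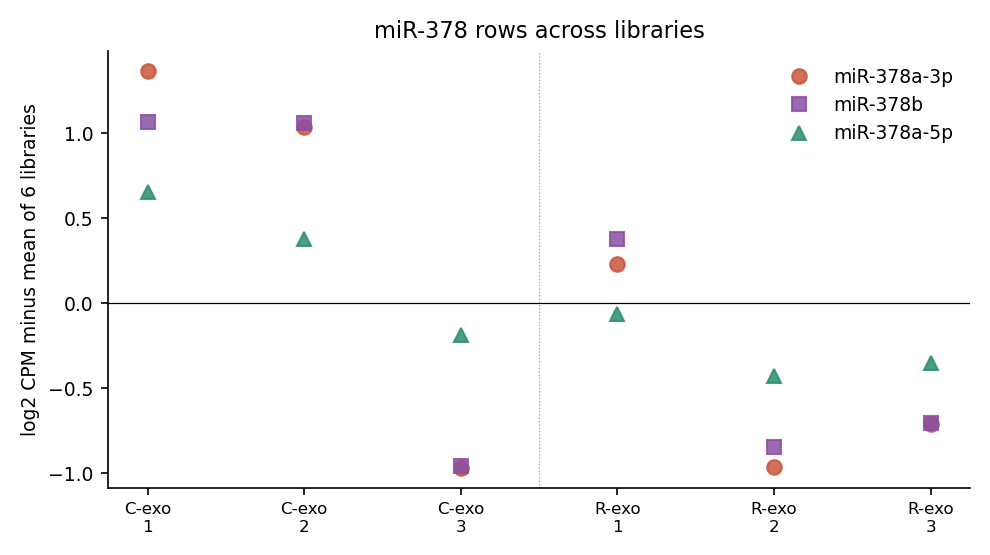
Points give the log2 CPM of miR-378a-3p, miR-378b and miR-378a-5p in each library minus the row's mean over the 6 libraries. miR-378a-3p and miR-378b lie close to each other in every library, and miR-378a-5p is high in C-exo replicates 1 and 2 with smaller deviations.

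The comparison of R-exo with C-exo asks whether the level of each arm relative to the other counted miRNAs differed after conditioning. Scaled counts cannot show the amount carried per exosome. It was made by edgeR's quasi-likelihood test on the 404 miRNAs that passed a filter on low counts, both arms included. CPM here are counts scaled to library size after TMM scaling, which is meant to correct for the composition of each library. The TMM factor was 0.81 for C-exo replicate 1 and 1.11 for C-exo replicate 2. By CPM C-exo replicate 1 was therefore the highest library for each arm, whereas by share of counts C-exo replicate 2 was. The CPM of miR-378a-3p was 122646, 97540 and 24238 in C-exo replicates 1, 2 and 3. In R-exo replicates 1, 2 and 3 it was 55712, 24363 and 29051. C-exo replicates 1 and 2 stood above every R-exo library and C-exo replicate 3 below every one. Its log2 fold change was -1.16 (standard error 0.60, 95% interval -2.52 to 0.19, unadjusted p = 0.084, adjusted p = 0.47 by edgeR), which did not pass. In this test 0% of the 404 miRNAs passed an adjusted p of 0.05, 38 had an unadjusted p under 0.05, and DESeq2 and limma-voom also passed 0.

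The CPM of miR-378a-5p was 45.5, 37.5 and 25.3 in C-exo replicates 1, 2 and 3. In R-exo replicates 1, 2 and 3 it was 27.6, 21.4 and 22.6. C-exo replicate 3 was below R-exo replicate 1, and otherwise each C-exo library was above each R-exo library. The log2 fold change was -0.60 (standard error 0.43, 95% interval -1.56 to 0.37, unadjusted p = 0.20, adjusted p = 0.51 by edgeR). For miR-378b the estimate was -0.93 on the log2 scale (standard error 0.61, adjusted p = 0.51 by edgeR). None of the 3 rows was separated between groups, where 12.9% of the 404 miRNAs were. None combined a change of over 2-fold with an unadjusted p under 0.05, which 7.43% of the 404 met in the direction of lower in R-exo. miR-378a-3p met both without the filter (-1.17 on the log2 scale, unadjusted p = 0.037 by edgeR), with the 10 most abundant miRNAs left out of TMM (-1.34, unadjusted p = 0.04996), without R-exo replicate 1 (-1.54, unadjusted p = 0.045) and without C-exo replicate 3 (-1.59, unadjusted p = 0.00071).

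**Figure D4:**
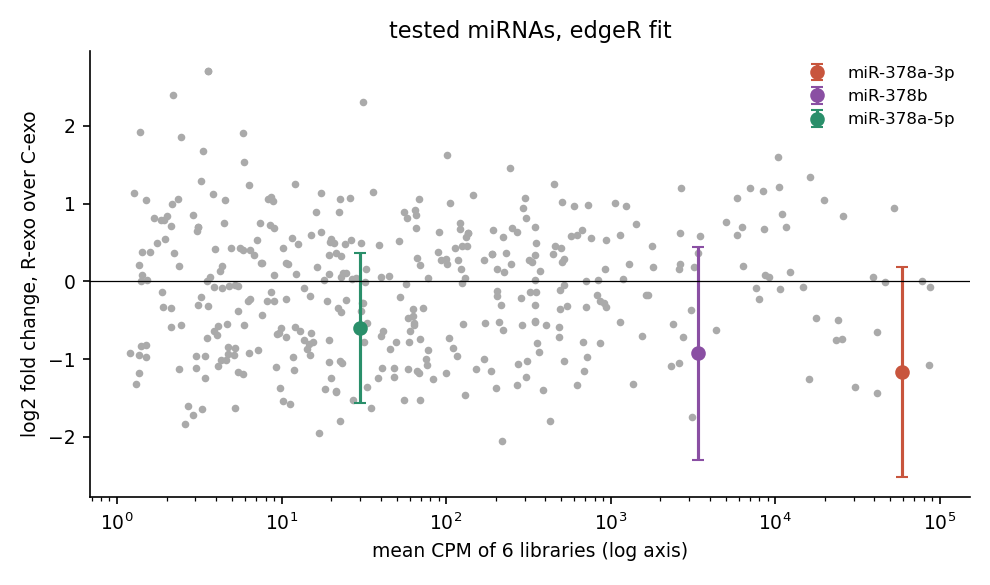
Log2 fold change of R-exo over C-exo against mean CPM (log axis) for the 404 tested miRNAs (grey), with 95% intervals for the miR-378 rows. All 3 estimates are below 0 and all 3 intervals include 0.

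The result for the 3p arm turned on 1 control library. C-exo replicate 3 was closer to the R-exo libraries over all tested miRNAs, with a Spearman's rho across miRNAs of 0.965 to 0.983 to them and of 0.902 and 0.931 to the other C-exo libraries. Without it, the log2 fold change of miR-378a-3p was -1.59 (standard error 0.37, 95% interval -2.39 to -0.79, adjusted p = 0.0089 by edgeR), and that of miR-378a-5p was -0.79 (standard error 0.41, adjusted p = 0.14 by edgeR). miR-378b also passed without that library, at -1.33 (standard error 0.43, adjusted p = 0.030 by edgeR). In that fit 31.3% of the 422 tested miRNAs passed an adjusted p of 0.05, and 14% passed as lower in R-exo, so the pass of miR-378a-3p came with that of 132 miRNAs. The arm ratio without the same library, fitted separately by limma as given above, did not pass. With any other library left out miR-378a-3p did not pass, and its log2 fold change was between -1.54 and -0.87.

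**Figure D5:**
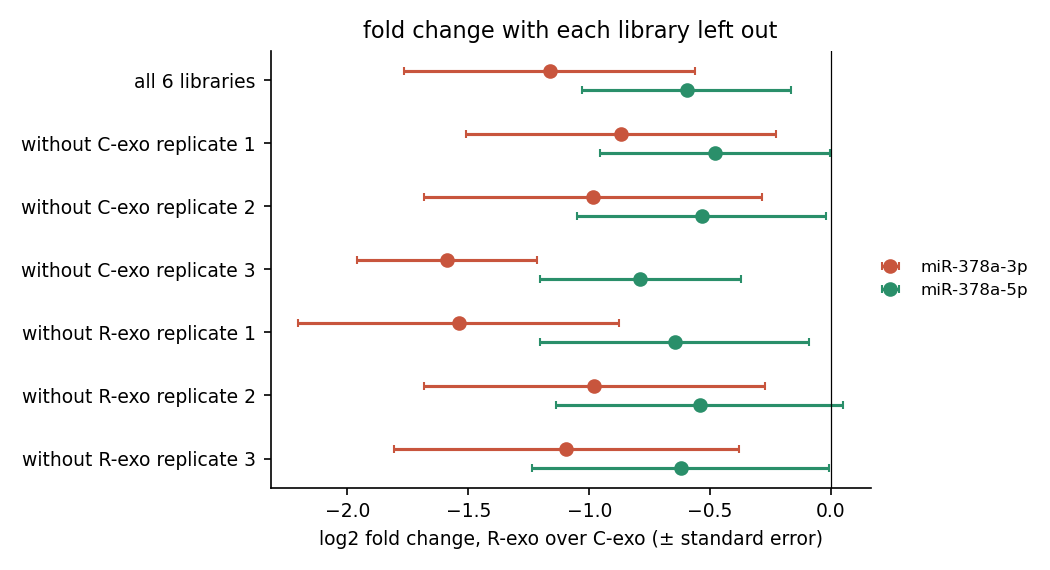
Log2 fold change of R-exo over C-exo with standard errors (edgeR) for both arms, with all 6 libraries and with each library left out. The estimates stay below 0 throughout, from -1.59 to -0.87 for miR-378a-3p and from -0.79 to -0.48 for miR-378a-5p.

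In the order of mean CPM over the 6 libraries, miR-378a-3p was number 4 of the 404, at 58925 CPM. Above it stood miR-486, a red cell miRNA, at 86115 CPM and miR-148a-3p at 78672 CPM, and below it miR-143-3p, a smooth muscle miRNA, at 52985 CPM and miR-192-5p, a liver and gut miRNA, at 46324 CPM. The range of miR-378a-3p over the libraries, 24238 to 122646 CPM, overlapped those of these 4 neighbours, so its place in the order is not fixed by these libraries. miR-192-5p was far steadier, between 40972 and 51291 CPM. On the log2 scale the SD over the libraries was 1.04 for miR-378a-3p and 0.43 for miR-378a-5p, against a median of 0.74 over the tested miRNAs, so the abundant arm was more variable than most and the rare arm less. Next to miR-378a-5p, number 228 at 30.0 CPM, stood miR-877, let-7b-3p, miR-664-3p and miR-671, with means from 27.1 to 30.3 CPM.

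The miRNAs whose levels kept the steadiest ratio to each arm were found by the SD over the 6 libraries of the log2 CPM ratio. For miR-378a-3p these were miR-378b (SD 0.16), miR-3075 (SD 0.20), miR-326-3p (SD 0.24), miR-488-3p (SD 0.24) and miR-17-1-3p (SD 0.26). For example, the CPM of miR-488-3p was 141, 125 and 19.6 in C-exo replicates 1, 2 and 3 and 67.8, 24.3 and 34.4 in the R-exo ones, with the same libraries high and low as for miR-378a-3p. miR-3075 and miR-17-1-3p were rare, with mean levels of 6.30 and 3.00 CPM. For miR-378a-5p the steadiest ratios were to miR-99b-3p (SD 0.086), miR-125b-2-3p (SD 0.091), miR-877 (SD 0.17), miR-33-5p (SD 0.17) and miR-22-3p (SD 0.19). miR-33-5p, which lies in an intron of the sterol regulator Srebf2, had a mean of 4.04 CPM. The lists of the arms held no miRNA in common, and the SD of the ratio between the arms themselves was 0.64. All of these compare the same 6 libraries and share their scaling.

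A list of 20 miRNAs known in lipid, glucose or oxidative metabolism was set beside miR-378a. Of these, 18 passed the filter, and 0 were higher and 0 lower in R-exo at an adjusted p of 0.05 (edgeR), against 0% of all tested. Their log2 fold changes were above 0 for 13 and below 0 for 5, with a median of 0.58. Some members belong to the same family, so these are not independent values. For example, miR-29a-3p, miR-29b-3p and miR-29c-3p were at 0.67, 0.63 and 0.62. Likewise miR-27a-3p and miR-27b-3p were both at 0.70, and miR-103-3p and miR-107-3p were at 0.59 and 0.57. Over all 404 they were above 0 for 197 and below 0 for 207, with a median of -0.05. At an unadjusted p under 0.05 there was 1 of the 18, against 9.41% of all 404, and this member, miR-370-3p, had an estimate of -1.42 (standard error 0.56, unadjusted p = 0.030 by edgeR). The most abundant, miR-143-3p, was estimated at 0.94 (standard error 0.59), and miR-122-5p, the main liver miRNA, at -0.65 (standard error 0.42), both on the log2 scale. The 2 miRNAs that the filter removed were miR-33-3p and miR-338-3p, with at most 1 and 5 counts in a library.

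Markers of tissues and blood cells moved between the same libraries, and their part in the values of miR-378a was not tested. The summed level of 7 striated muscle miRNAs, led by miR-1-3p and miR-133a-3p, was 2151, 3188 and 9821 CPM in C-exo replicates 1, 2 and 3 and 5972, 1805 and 4093 CPM in R-exo replicates 1, 2 and 3. It was highest in C-exo replicate 3, where miR-378a-3p was lowest, but next highest in R-exo replicate 1, where miR-378a-3p was high, and lowest in R-exo replicate 2, where miR-378a-3p was low. The heart miRNA miR-208a-3p had 0 counts in 1 library. The 6 adipose miRNAs, led by miR-455-5p and miR-193b-3p, summed to 935.4 to 2281 CPM in C-exo and 935.2 to 1222 CPM in R-exo. Most of this sum was miR-455-5p, at a mean of 1149 CPM, and the log2 fold changes of the members were above 0 for 3 and below 0 for 3. The 4 liver miRNAs, led by miR-192-5p and miR-122-5p, summed to 79873 to 109262 CPM in C-exo and 76448 to 81311 CPM in R-exo, and of these only miR-122-3p reached 0 in a library.

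Among blood cells, the 5 red cell miRNAs, led by miR-486 and miR-451-5p, summed to 198399, 92567 and 69494 CPM in C-exo replicates 1, 2 and 3 and to 44884, 75149 and 60446 CPM in R-exo replicates 1, 2 and 3. C-exo replicates 1 and 2 were the highest, as for miR-378a-3p, and R-exo replicate 1, the next highest for miR-378a-3p, was the lowest. Nearly all of this sum was miR-486, at a mean of 86115 CPM and a log2 fold change of -1.07 (standard error 0.48), and the estimates of the other 4 members were above 0. Those 4 alone summed to 2586, 2616 and 5089 CPM in C-exo replicates 1, 2 and 3 and to 4005, 7109 and 2842 CPM in R-exo replicates 1, 2 and 3, with C-exo replicates 1 and 2 the lowest. The 5 leukocyte and platelet miRNAs, led by miR-126a-3p and miR-142-5p, summed to 9633 and 10701 CPM in C-exo replicates 1 and 2, the libraries with the most miR-378a-3p, and to 31859 to 46698 CPM in the other 4. Most of this sum was miR-126a-3p and miR-142-5p, at means of 16267 and 11053 CPM, and the authors tie miR-126a-3p to endothelial cells. Their log2 fold changes were 1.34 (standard error 0.52) and 0.86 (standard error 0.83), and that of miR-142-3p was 0.97 (standard error 0.46). Those of miR-150-5p and miR-223-3p were 0.03 (standard error 0.52) and -0.36 (standard error 0.46). Neither blood list had a member at 0 in any library. In all 5 marker lists 0 members passed an adjusted p of 0.05 (edgeR), and 3 of the 26 tested had an unadjusted p under 0.05 (11.5%, against 9.41% of all 404), namely miR-144-3p, miR-144-5p and miR-126a-3p, which are all higher in R-exo by estimate.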

How the data were processed

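Small RNA libraries of plasma exosomes (3 C-exo, 3 R-exo) were read on an Illumina instrument. The authors deposited raw counts of reads on 763 mature rat miRNAs per library, not normalized and not pooled; the submitters' processing notes name bcl2fastq, BWA and the build rn6, and the handling of multi-matching reads is not given in the sources used here. Groups and replicate numbers came from the sample titles. The members and lists were chosen with earlier results of these data known. The test was edgeR 4.0.16 under R 4.3.3 (filterByExpr with minimum count 10 and minimum total 15, TMM, quasi-likelihood test, Benjamini-Hochberg adjustment over 404 miRNAs). Standard errors were taken from the fold change and its F statistic, and log2 CPM used a prior count of 2. Arm ratios, log2 with 0.5 added, were fitted with limma 3.58.1 over 110 pairs. Single values were compared by an exact permutation test. Named miRNAs are both arms, miR-378b, neighbours in level and arm ratio, the 5 of steadiest ratio to each arm, and the 2 most abundant of each list; every other miRNA named, miR-3557 included, was chosen after its values were seen. Procedures were tested on simulated data. Alternatives were other scalings and filters, DESeq2 1.42.0, limma-voom, a replicate block and each library left out. Only counts per mature miRNA were used, and qRT-PCR was not analysed here. Depth was 5484209 to 7531737 counts. Figures were drawn with matplotlib 3.10.9.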

Additional observations from a re-analysis of the deposited data

How the results depend on the processing

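The estimates of both arms and of their ratio were below 0 under every alternative run. With all 6 libraries kept, the log2 fold change of miR-378a-3p lay between -1.34 and -0.96 (adjusted p from 0.38 to 0.54) over 10 alternatives, and that of miR-378a-5p between -0.73 and -0.42 (adjusted p from 0.44 to 0.68) over 9, by edgeR, DESeq2 or limma. Scaling by library size only moved the median log2 fold change of all tested miRNAs from -0.05 to 0.10, and relative to that median miR-378a-3p was at -1.12 under TMM and -1.06 by library size. With each library left out, the log2 fold change ranged from -1.59 to -0.87 for miR-378a-3p, from -0.79 to -0.48 for miR-378a-5p and from -0.88 to -0.14 for the arm ratio, the difference in share from -6.46 to -2.17 percentage points for the 3p arm and from -0.00139 to -0.000486 for the 5p arm (-3.74 and -0.000865 with all 6 libraries), and the number of miRNAs called by edgeR from 0 to 132. With the other miRNAs among the 10 most abundant taken out of the total, the differences in share were -9.33 and -0.0025 percentage points. Only the fit without C-exo replicate 3 called any miRNA, miR-378a-3p among them. The groups share replicate numbers in the titles but are different rats, and the deviations of same-numbered libraries from their group means correlated at 0.33, -0.28 and 0.28 across miRNAs, so the numbers were not taken as pairs. With the replicate number as a block the log2 fold changes were -0.97 for miR-378a-3p, -0.57 for miR-378a-5p and -0.39 for the arm ratio, and the block changed no call. Depth limits the 5p arm, whose 149 to 293 counts set the width of the arm ratio intervals. The labels give no sequencing batch, so no comparison within batches was made.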
